A study of Mus musculus with 12 samples.

Results

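The sites compared here are those bound by 2 mutants of a chimeric muscle and neuronal transcription factor, MD(ND2bHLH)WC and MD(ND2bHLH)WCS, shortened to WC and WCS, which differ in their names by an added S. All sites of both deposited lists were taken, 27045 for WC and 22462 for WCS, together 49507 of the 120275 sites in the 5 lists of the series. A WC site was called kept where a WCS site overlapped it by at least 1 base and lost where none did. A WCS site with no overlapping WC site was called gained.

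The series mapped binding by chromatin immunoprecipitation and sequencing (ChIP-seq) in P19, an established mouse embryonal carcinoma line that can be turned towards neurons or muscle, after viral transduction of each factor. WC and WCS cells received MyoD carrying the bHLH domain of NeuroD2 and further mutations, and the labels do not say which residues W, C and S stand for. WC and WCS each have 2 libraries, 1 with MyoD antibody 6196 and 1 with MyoD antibody 6975, and 1 list of sites. The lists of cells transduced with MyoD, with NeuroD2 and with the unmutated chimera MD(ND2bHLH), 24935, 31458 and 14375 sites, served here to class the sites. MyoD and chimera cells were precipitated with the same 2 MyoD antibodies and NeuroD2 cells with NeuroD2 antibodies 1165 and 1240, so in every class below the antibody cannot be told apart from the parent protein. The 2 libraries of untransduced cells were not used. Per the protocol common to all samples, cells were infected with polybrene and moved to neuronal medium after 48 h.

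MyoD and NeuroD2 are basic helix-loop-helix (bHLH) proteins that bind short E-box motifs as dimers, MyoD as a master factor of skeletal muscle and NeuroD2 as a factor of neuronal differentiation. Parts of MyoD outside the bHLH domain, a region rich in histidine and cysteine and a helix near the C terminus, are known to help it reach chromatin beside the homeodomain proteins Pbx and Meis. A mutant series in a MyoD backbone therefore addresses how much of site choice comes from the DNA-binding domain and how much from the rest of the protein.

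With 1 list a group there is no spread between replicates and no test between the lists. Shares are given with 95% exact Clopper-Pearson intervals, which cover counting error only. Sites within a list share libraries and threshold and are not independent replicates. Each site has a deposited value, read here as −log10 of a p-value, which no label states. It served to order sites inside a list, and read depth is unknown. No mm9 annotation or sequence was used here, so sites are named by mm9 position, 1-based, without genes.

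Most sites of both mutants were common to both, and the WCS list lay largely inside the WC list. WCS kept 18413 of the 27045 WC sites, 68.1% (67.5 to 68.6%), and 8632 or 31.9% were lost. Of the 22462 WCS sites, 18469 or 82.2% (81.7 to 82.7%) overlapped a WC site and 3993 or 17.8% were gained. The WC list is 1.20 times as long, so more losses than gains follow from the lengths. With WC shortened to its 22462 sites of highest value, 74.5% of those sites were kept and 74.9% of WCS sites were shared. This left 5719 lost and 5648 gained. Equal lengths make these counts nearly equal, since few sites overlapped several of the other list. In bases, the lists held 6.57 Mb in common, 63.5% of the WC bases and 81.1% of the WCS bases. Joining overlapping sites of WC and WCS gave 30970 regions, and 18345 of these came from both.

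With each list set against the whole of the other, losses reached high into the WC list. Gains were almost confined to low values of the WCS list. Each list was divided into 10 equal parts by its own value. The share of WC sites kept rose from 33.9% in decile 1, the lowest, to 66.8% in decile 5 and 97.0% (96.3 to 97.7%) in decile 10. The share of WCS sites also held by WC rose from 46.4% in decile 1 to 98.2% in decile 7, and stood at 99.9% (99.7 to 100%) in decile 10. WC therefore lacked 2 of the 2246 WCS sites in decile 10, while WCS lacked 81 of the 2704 WC sites in its decile 10. The whole WC list is the longer. With both lists cut to equal length the counts of the 2 sides must be nearly even, since few sites overlapped several of the other list. Such evenness does not bear on the difference at high values. Of the 5000 sites of highest value in each list, 1352 WC sites and 1336 WCS sites overlapped none of the other 5000. Of the leading 10000 these numbers were 2460 and 2435. The median value was 7.24 for lost and 13.8 for kept sites within the WC list. It was 6.21 for gained and 11.9 for shared sites within the WCS list.

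**Figure D1:**
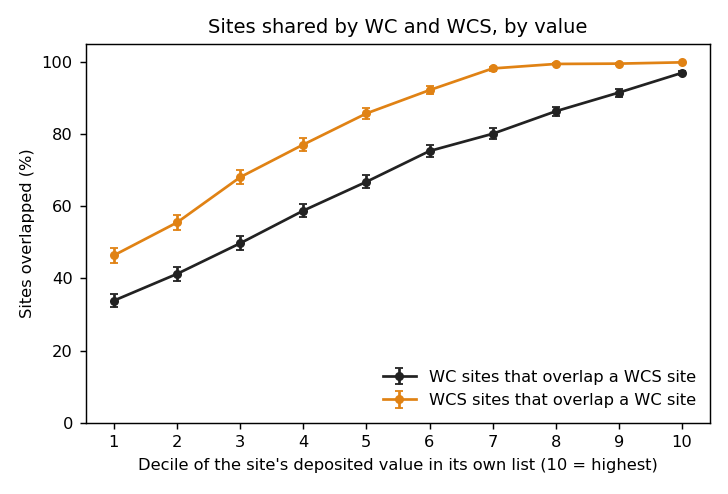
Percentage of sites that overlap a site of the other list (vertical axis) by decile of the site's own value (horizontal axis, 10 highest). Bars are 95% exact Clopper-Pearson intervals. Each list is set against the whole of the other, and the WC list is the longer. WCS sites reach 98.2% by decile 7, whereas WC sites reach 80.1% there and 97.0% in decile 10.

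To see which kinds of sites were lost, sites were classed by overlap with the lists of both parents, which the call of kept or lost does not use. MyoD-only sites overlapped a MyoD site and no NeuroD2 site, NeuroD2-only sites the converse, and the others overlapped both parents or neither. The classes fared very differently. WCS kept 88.9% (88.0 to 89.8%) of the 5252 WC sites of both parents and 79.7% (79.0 to 80.4%) of the 12973 NeuroD2-only sites. It kept 43.9% (41.6 to 46.1%) of the 1914 MyoD-only sites and 37.1% (36.0 to 38.3%) of the 6906 sites of neither parent, where 68.1% of all WC sites were kept. The difference between NeuroD2-only and MyoD-only sites was 35.8 percentage points.

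In net numbers the MyoD-only class went from 1914 WC to 1330 WCS sites, a change of −30.5%, and the class of neither parent from 6906 to 4530, a change of −34.4%. NeuroD2-only sites went from 12973 to 11652, a change of −10.2%, and sites of both parents from 5252 to 4950, a change of −5.75%. Against the shortened WC list these changes were −8.40% for MyoD-only, −3.84% for neither parent, 2.25% for NeuroD2-only and 0.959% for both parents. List length thus took up much of the net change, and the MyoD-only class had the largest percentage change of the 4 classes with equal length. In sites it went from 1452 to 1330, the class of neither parent from 4711 to 4530 and NeuroD2-only from 11396 to 11652. Sites of both parents went from 4903 to 4950. At equal length, falls in some classes must be matched by rises in others.

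Lost and gained sites were alike in class make-up. MyoD-only sites made up 12.4% of lost and 12.0% of gained sites, against 4.56% of kept WC sites. Sites of neither parent made up 50.3% of lost, 48.9% of gained and 13.9% of kept sites, and NeuroD2-only sites 30.5%, 31.9% and 56.2%. In each class there were between 44.7 and 48.8 gained sites for every 100 lost. The classes therefore did not separate loss from gain by counts. Each list was also divided by its own value into 5 equal parts. In the part of highest values, 86 lost and 0 gained sites were MyoD-only, and 71 and 11 were NeuroD2-only. There were 37 and 1 of both parents, and 116 and 0 of neither. Losses thus outnumbered gains at high values in all 4 classes, with each list set against the whole of the other.

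Keeping rose far less with WC value among MyoD-only sites than among NeuroD2-only sites. The 5 equal parts of each list by its own value are called quintiles, and quintile 5 has the highest values. From quintile 1 to 5 of the WC list, the share of NeuroD2-only sites kept rose through 48.6%, 65.3%, 80.3% and 91.9% to 97.6% (97.0 to 98.1%). The share of sites of both parents rose from 57.7% to 98.2% (97.5 to 98.7%). Among MyoD-only sites it went from 36.5% in quintile 1 to 44.7%, 48.9% and 47.9%, and was 46.6% (38.7 to 54.6%) in quintile 5. In that quintile WCS lacked 86 of 161 MyoD-only sites and 71 of 2926 NeuroD2-only sites. Sites of neither parent were between these, with 60.1% (54.3 to 65.8%) of 291 sites kept in quintile 5.

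Seen from WCS, and against the whole of the longer WC list, no such gap appeared at high values. In quintile 5 of the WCS list, all 38 MyoD-only sites (90.7 to 100%) and all 85 sites of neither parent (95.8 to 100%) overlapped a WC site, as did 99.6% of NeuroD2-only sites. In quintile 4, 97.1% of 140 MyoD-only sites overlapped a WC site, and 98.9% of 2752 in the NeuroD2-only class. MyoD-only sites of high WCS value were few, 38 in quintile 5 against 161 in quintile 5 of WC, and every one of these 38 was a WC site too. In quintile 1 of the WCS list, 43.4% (38.9 to 48.0%) of MyoD-only sites overlapped a WC site, and 64.3% (62.0 to 66.6%) in the NeuroD2-only class.

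**Figure D2:**
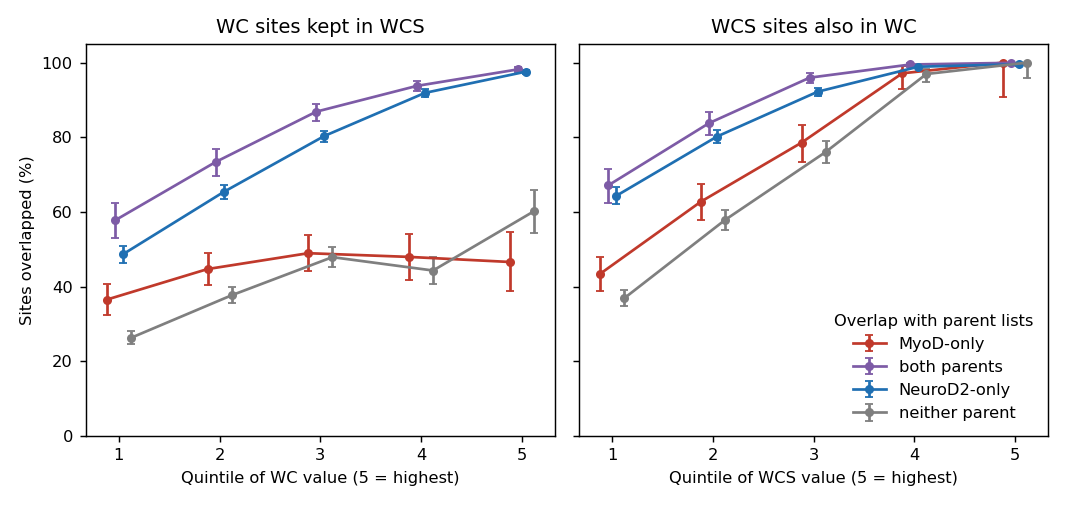
Percentage of sites overlapped by the other mutant's list, for WC sites (left) and WCS sites (right), by quintile of the site's own value and by overlap with the MyoD and NeuroD2 lists. Bars are 95% exact Clopper-Pearson intervals, and in quintile 5 MyoD-only sites stand at 46.6% on the left and 100% on the right.

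Site width moved with value and with being kept, and the class difference was also present within a limited range of widths. Median width was 380 bp for kept and 291 bp for lost WC sites, and 351 bp for shared and 242 bp for gained WCS sites. Of WC sites of 201 to 300 bp 45.9% were kept, and of those of 601 to 1000 bp 94.2%. Among quintile 5 sites of 300 to 600 bp, WCS kept 45.2% (37.0 to 53.6%) of 146 MyoD-only sites and 97.8% (97.1 to 98.3%) of 2249 NeuroD2-only sites. Their median widths were 436 and 461 bp.

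From the WC side, the rank of a site in a parent's own list went with keeping in opposite ways for the 2 parents; from the WCS side it did not. NeuroD2-only WC sites were split into 5 bins by their NeuroD2 value, and the share kept rose from 61.9% in the lowest bin to 94.7% (93.7 to 95.5%) in the highest. MyoD-only WC sites were split by their MyoD value, and the share kept was 48.0% (42.9 to 53.2%) in the lowest bin and 37.3% (32.5 to 42.4%) in the highest. These 2 intervals do not overlap, by a narrow margin, and the share in the 3 bins between lay from 43.9% to 45.8%, in no order. Among WCS sites, the share also in WC was higher in the highest than in the lowest bin of the parent's value in both classes. It was 60.2% (54.0 to 66.1%) in the lowest and 73.3% (67.6 to 78.5%) in the highest bin for MyoD-only sites, with 59.4% in bin 2, and 75.6% and 98.8% for NeuroD2-only sites. These bins were not matched for the value in the mutant's own list. In quintile 5 of WC value, lost MyoD-only sites had a median percentile of 83.1 in the MyoD list and kept ones 69.5, where 100 is the highest value. Kept NeuroD2-only sites had the higher median NeuroD2 percentile in every quintile of WC value. The medians of kept and lost sites were 45.2 and 39.7 in quintile 1, and 87.9 and 67.8 in quintile 5.

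Sites of both parents were split into 3 equal parts by the percentile in the NeuroD2 list minus that in the MyoD list. WCS kept 81.6% (79.7 to 83.4%) of the 1751 sites that ranked higher for MyoD and 92.9% (91.6 to 94.1%) of the 1751 that ranked higher for NeuroD2. The parts differ in WC value, and at matched value the shares were close in quintiles 1 to 3, at 55.9% and 55.6%, 73.0% and 74.0%, and 85.6% and 88.3%. In quintile 4 they were 89.0% (85.6 to 91.8%) and 95.4% (93.0 to 97.1%), and in quintile 5 they were 92.9% (89.8 to 95.4%) of 354 and 99.8% (99.1 to 100%) of 834 sites. The intervals of the 2 parts did not overlap in quintiles 4 and 5 and overlapped in quintiles 1 to 3. The 37 lost sites of both parents in quintile 5 had a median NeuroD2 percentile of 37.3, against 88.3 for the 1994 kept, while their median MyoD percentiles were 78.2 and 76.8.

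Over WC sites of all values, overlap with the unmutated chimera went with keeping in the NeuroD2-only class and not in the MyoD-only class. Among MyoD-only WCS sites such overlap went with being in WC. Of all kept WC sites 38.5% overlapped a chimera site, against 20.5% of lost and 13.3% of gained sites. Among NeuroD2-only WC sites WCS kept 91.7% of the 2909 in the chimera list and 76.2% of the 10064 outside it. The 2 groups differ in WC value, with 1450 and 1476 of these sites in quintile 5. In quintiles 1 to 3 of WC value the shares inside and outside were 57.9% and 47.9%, 76.6% and 64.3%, and 85.8% and 79.5%. They were close in quintile 4, at 91.5% and 92.0%, and in quintile 5, at 98.6% and 96.5%. Among MyoD-only WC sites it kept 43.7% (40.9 to 46.6%) of the 1182 in the chimera list and 44.1% (40.5 to 47.8%) of the 732 outside it. These 2 intervals overlap over most of their length. Among MyoD-only WCS sites, 71.3% (67.9 to 74.5%) of the 738 in the chimera list were also in WC, against 54.7% (50.6 to 58.8%) of the 592 outside it. In quintile 5, 151 of the 161 MyoD-only sites were chimera sites, of which 69 were kept.

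Of the 3 other lists, that of NeuroD2 divided WC sites into the most unequal shares. WCS kept 82.4% (81.8 to 82.9%) of the 18225 WC sites in the NeuroD2 list and 38.6% (37.6 to 39.6%) of the 8820 outside it. For the MyoD list the shares were 76.9% inside and 64.9% outside, and for the chimera list 80.1% and 62.2%. The NeuroD2, MyoD and chimera lists differ in length, at 31458, 24935 and 14375 sites, and these shares make no allowance for that. In quintile 5 of WC value WCS kept 97.8% of 4957 sites in the NeuroD2 list and 55.3% (50.6 to 59.96%) of 452 outside it. Chromosome X has sites of WC, WCS and NeuroD2 and none of MyoD or the chimera, so a set of lists made alike cannot be told apart from the protein in these class shares. On autosomes alone the difference between NeuroD2-only and MyoD-only WC sites was 35.8 points.

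The leading sites of the lists themselves showed the same loss. Among the 2000 sites of highest value, 40 WC sites and 7 WCS sites were MyoD-only. Among the leading 5000 there were 149 and 49, and among the leading 10000 there were 387 and 234, or 3.87% and 2.34%. Sites of neither parent numbered 249 in WC and 102 in WCS among the leading 5000. Sites of both parents numbered 1925 and 1984 there, and NeuroD2-only sites 2677 and 2865. Fewer MyoD-only sites among the leading WCS sites thus went with more NeuroD2-only sites at equal length.

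**Figure D3:**
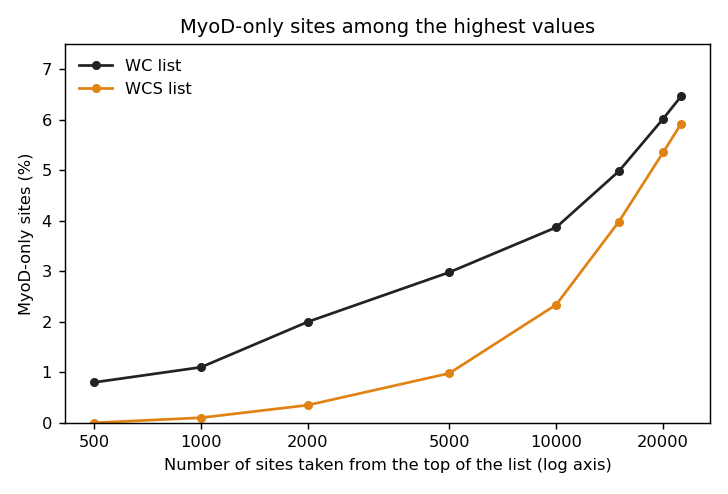
MyoD-only sites as a percentage of the leading sites of each list (vertical axis) by the number of leading sites taken (horizontal log axis). The WCS line lies below the WC line at every number taken, with 0.98% against 2.98% at 5000 sites.

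Kept sites lay at nearly the same place, and their ranks agreed in part. There were 18174 pairs of a WC and a WCS site that overlapped no other site of the 2 lists. Their centres were a median of 20 bases apart, and 97.2% lay within 100 bases. The WCS site was the narrower in 64.8% of pairs, with median widths of 350 bp for WCS and 379 bp for WC. Only 120 WC sites overlapped 2 or more WCS sites, and 66 WCS sites overlapped 2 or more WC sites. Spearman's rho of the ranks was 0.765 over the 18174 pairs, as a description, since sites share libraries and width goes with value.

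The change in rank of MyoD-only pairs went with their WC value. Over all 838 MyoD-only pairs the median change, WCS minus WC, was 3.50 percentile points, with 474 higher in WCS, and over all 10208 NeuroD2-only pairs it was 1.44 points. In quintile 1 of WC value it was 14.9 points for MyoD-only pairs and 12.2 for NeuroD2-only pairs. Among pairs of high WC value, MyoD-only sites ranked lower in WCS and NeuroD2-only sites had about the same rank in both. Ranks were turned into percentiles among the pairs, so that lost and gained sites do not move them. In quintile 5 of WC value the 75 MyoD-only pairs went from a median percentile of 84.9 in WC to 47.1 in WCS. Their median change was −37.6 points (interquartile range −62.0 to −12.2), and 67 of 75 were lower in WCS. The 175 pairs of neither parent changed by −30.1 points (−59.2 to −5.70), and 141 were lower. The 2795 NeuroD2-only pairs changed by −0.083 points (−9.11 to 3.44) and the 1956 pairs of both parents by 0.096 points (−8.15 to 3.60).

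Selecting pairs by a high value in 1 list tends to lower their rank in the other, so the same pairs were also taken from the WCS side. In quintile 5 of WCS value the 38 MyoD-only pairs had a median percentile of 74.4 in WC and 82.9 in WCS, with a median change of 14.6 points, and 26 were higher in WCS. The change there was 3.15 points for 2457 NeuroD2-only pairs. In quintile 5 MyoD-only pairs thus moved further than NeuroD2-only pairs from both sides, and further from the WC side than from the WCS side. In quintile 4 the order of the 2 sides was reversed. The median change of MyoD-only pairs there was −15.9 points from the WC side (128 pairs) and 23.9 from the WCS side (135 pairs). NeuroD2-only pairs changed there by 0.556 and 5.19 points. Over all values MyoD-only pairs had median percentiles of 26.0 in WC and 28.7 in WCS, against 52.5 and 52.1 for NeuroD2-only pairs. Selection by a high value tends to move a class of low median further. The difference between these classes in rank change therefore cannot be told apart from that effect.

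**Figure D4:**
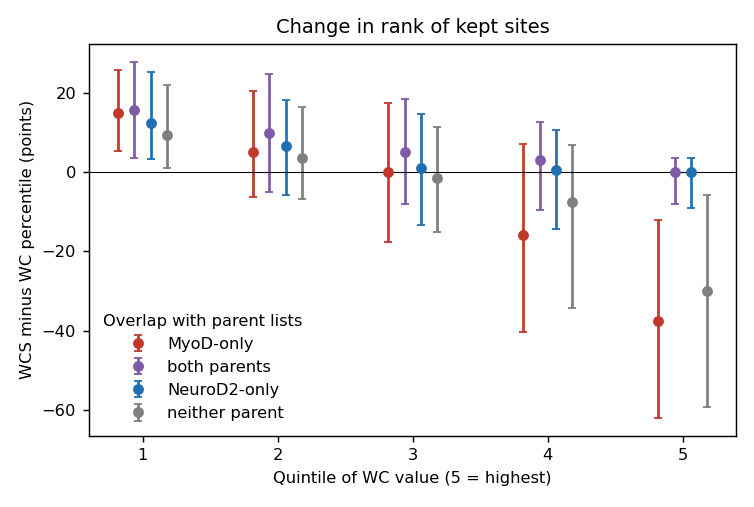
Change in percentile from WC to WCS of kept pairs (vertical axis, points) by quintile of WC value and by overlap with the parent lists. Points are medians and bars the interquartile range over sites, not an error. In quintile 5 the medians are −37.6 for MyoD-only and −0.083 for NeuroD2-only pairs.

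The 5 lost sites of highest WC value came from all 4 classes. The site on chromosome 3 from 141854455 to 141854954 had a value of 128.9 in WC and 121.1 in NeuroD2, and neither MyoD nor the chimera held it. The nearest WCS site was 127243 bases away. The site on chromosome 19 from 46261017 to 46261580 was in all lists but that of WCS, with 127.7 in WC, 81.5 in MyoD, 12.7 in NeuroD2 and 81.1 in the chimera. It ranked 730 in the MyoD list and 13027 in the NeuroD2 list, and a WCS site lay 168 bases from it. This is a site of both parents that ranked far higher for MyoD.

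A NeuroD2-only site on chromosome 14 from 9119000 to 9119365 had 120.5 in WC and 114.6 in NeuroD2. A MyoD-only site on chromosome 7 from 129310687 to 129311173 had 112.2 in WC, 77.2 in MyoD and 73.1 in the chimera, and no WCS site lay within 121243 bases. It was the only WC site in its window of 100 kb, and it was the leading MyoD-only loss. The site on chromosome 2 from 35156312 to 35156892 had 109.2 in WC and 12.2 in the chimera and was in neither parent's list.

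The other 2 leading MyoD-only losses were chimera sites as well. Chromosome 16 from 92835182 to 92835674 had 79.7 in WC, 8.62 in MyoD and 11.4 in the chimera. Chromosome 4 from 44646431 to 44647041 had 73.9 in WC, 100.6 in MyoD and 86.9 in the chimera, where it ranked 167. All 3 MyoD-only sites lay over 7 kb from any WCS site, at 121243, 11069 and 7725 bases. The third leading NeuroD2-only loss was of another kind, an interval of 18276 bp on chromosome 11 from 3030625 to 3048900 with 104.6 in WC and 120.1 in NeuroD2.

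The leading gains lay within 3 kb of WC sites, most of them in crowded windows. The gained site of highest value was an interval of 16044 bp on chromosome 11 from 3084103 to 3100146, with 106.0 in WCS and 126.0 in NeuroD2. It shares its 100 kb window with the wide lost interval just named, and a WC site lay 2896 bases from it. The next were chromosome 5 from 14986926 to 14987302, with 43.0 in WCS and 35.4 in NeuroD2, and chromosome 18 from 3007472 to 3008052, with 35.7 and 28.4. Chromosome 1 followed, from 85246360 to 85247751 with 35.3 and 22.3, and from 87521285 to 87522680 with 31.4 and 22.7. All 5 were NeuroD2-only, and the nearest WC site was 158 to 2896 bases away. The site on chromosome 18 was the exception to crowding, in a 100 kb window with 1 WC, 2 WCS and 6 NeuroD2 sites.

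A window of 100 kb was called dense where any list had 10 or more sites, and 287 windows were. They held 10.5% of all WCS sites and 9.41% of all WC sites. Over all values, dense windows had lower shares gained and lost than the whole lists, 15.1% of their WCS sites and 21.7% of their WC sites. Of the 12 gained sites in quintile 5, 11 lay in dense windows and 10 within 3 kb of a WC site, and 11 were NeuroD2-only. Of the 310 lost sites in quintile 5, 24 lay in dense windows, 45 within 3 kb of a WCS site and 216 over 10 kb from any. Whether reads map uniquely in dense windows was not tested. Without these windows 8080 sites were lost and 3637 gained, against 8632 and 3993 with them.

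MyoD-only gains were lower in rank. The 3 leading ones were chromosome 2 from 25953288 to 25953638, with 16.6 in WCS and 32.3 in MyoD, chromosome 3 from 35239814 to 35240128, with 14.6 and 6.94, and chromosome 8 from 46086945 to 46087266, with 14.1 and 20.2. The best of them ranked 6547 in the WCS list, whereas the leading MyoD-only loss ranked 311 in the WC list. Their nearest WC sites were 19380 to 40218 bases away.

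Among kept pairs, the best mean rank belonged to chromosome 6 from 116620173 to 116621636, a site in all 5 lists with an infinite value in WC, WCS and NeuroD2 and with 188.2 in MyoD and 117.8 in the chimera. Chromosome 1 from 172585369 to 172586446 was also in all 5 lists, with an infinite value in WC and NeuroD2 and 290.7 in WCS. The other 3 were chromosome 2 from 181747330 to 181748052 and chromosome 9 from 3006602 to 3007048 and from 3003308 to 3003690. All 3 were infinite in both mutants and absent from the MyoD and chimera lists. Both chromosome 9 sites lay in a dense window, with 30 NeuroD2 sites, where unique mapping of reads was not tested. The 8 WC sites and 6 WCS sites with an infinite value were all shared.

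Pairs could also change rank by most of the list. The 3 that fell furthest were NeuroD2-only sites. On chromosome 10 from 60827092 to 60827586 the value was 73.5 in WC and 5.36 in WCS, a fall from percentile 95.2 to 3.32 among pairs. On chromosome 8 from 69131013 to 69131444 the values were 62.3 and 5.18, and on chromosome 5 from 132565338 to 132565769 they were 64.0 and 5.18. The 3 that rose furthest were chromosome 19 from 17212694 to 17212976, with 6.23 in WC and 24.3 in WCS, chromosome 1 from 16120147 to 16120353, with 5.69 and 19.8, and chromosome 12 from 81716923 to 81717203, with 5.58 and 19.02. The largest rise was 69.8 points and the largest fall −91.8, and 480 of 18174 pairs changed by over 50 points.

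Losses were spread along the genome. The share of WC sites lost ran from 28.2% on chromosome 8 (26.0 to 30.5%) to 34.9% on chromosome 12 (32.1 to 37.8%), against 31.9% of all WC sites. The share of WCS sites gained ran from 15.6% on chromosome 5 (13.9 to 17.5%) to 20.9% on chromosome 1 (18.9 to 23.0%), against 17.8% of all WCS sites. Of 12235 windows of 100 kb with a WC or WCS site, 5222 had more losses than gains, 2061 more gains than losses and 4952 equal numbers.

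The windows with the largest net loss held 8 lost and 0 gained sites, from 100000001 on chromosome 6, with 15 WC and 7 WCS sites, and from 56400001 on chromosome 17, with 10 and 2. The window from 127900001 on chromosome 6 followed, with 18 WC and 11 WCS sites. The largest net gain was 6 sites, in windows from 84900001 on chromosome 1 and from 145600001 on chromosome 4, each with 1 WC and 7 WCS sites, and from 43900001 on chromosome 14, with 12 and 19. The window on chromosome 4 held 17 NeuroD2 sites, 0 MyoD sites and 1 chimera site. The net-loss windows held MyoD sites as well, 9, 11 and 14 of them, beside 14, 8 and 18 NeuroD2 sites.

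Few lost or gained sites were near misses. The nearest WCS site was a median of 19618 bases from a lost site, and 702 lost sites or 8.13% had one within 1 kb. For gained sites the median distance to a WC site was 14370 bases, and 427 or 10.7% lay within 1 kb. Sites with a neighbour in their own list within 1 kb were kept more often, 75.8% (74.4 to 77.2%) of 3653 WC sites, than those with none within 100 kb, 62.3% (60.2 to 64.4%) of 2160. Their median WC values also differed, at 12.4 and 9.81.

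Many lost and gained sites were in no other list. Of the lost sites 3795 or 44.0% overlapped no site of MyoD, NeuroD2 or the chimera, and of the gained sites 1829 or 45.8%, against 11.8% of kept WC sites. Of the lost sites 37.2% were NeuroD2 sites and 19.2% MyoD sites, and of the kept sites 81.5% and 29.9%. Within the NeuroD2-only class, lost sites had a median NeuroD2 percentile of 44.5, gained sites 40.1 and kept WC sites 69.6.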

How the data were processed

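ChIP-seq lists of the WC and WCS groups (2 libraries each) were compared, and 3 further lists gave the classes. The submitters' processing notes name BWA 0.7.5, CASAVA 1.8.2 and the build mm9. How peaks were called, filtered or pooled over libraries is not given in the sources used. The authors' deposited value per site was taken for a −log10 p-value because its numbers, all above 5 and up to infinity, look like one.

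Overlap was at least 1 base. Ties in value were ordered by width. Named sites and windows are, by rule, the leading lost, gained and kept sites, the largest rank changes and the windows and chromosomes at the extremes. The comparison, classes and lists were chosen with earlier results of these data known. Alternatives were other overlap rules, value thresholds, list length, autosomes, joined sites and removal of dense windows. The rule of 1 kb, and every alternative for quintile 5, were added after seeing the data. The overlap code was tested on simulated data. Versions were scipy 1.17.1 and pandas 2.3.3 on Python 3.11.15, with numpy 2.4.6 and, for plots, matplotlib 3.10.9.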

Additional observations from a re-analysis of the deposited data

How the results depend on the processing

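The 9 alternatives were run on the counts lost and gained, both overlap shares, both class differences and the 4 class shares of WC sites in quintile 5, and neither class difference changed sign. The splits by chimera, parent rank and relative rank of both parents, the rank changes and the leading-site counts were not run under them. No paired analysis was possible because each group has 1 list, which does not separate its 2 libraries, so leaving out a library was not possible either. The alternatives on value cut the WC and WCS lists and left the parent lists whole.

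With values of at least 10, WCS kept 66.98% of WC sites and WC held 86.6% of WCS sites, 4796 sites were lost and 1514 gained, and NeuroD2-only minus MyoD-only sites came to 46.03 points for WC and 29.7 points for WCS. With the 50% of highest value these were 69.7%, 84.1%, 4096, 1782, 48.8 and 33.002 points. With the WC list shortened the shares were 74.5% and 74.9%, with 5719 lost, and the WCS difference was 31.02 points. With centres at most 100 bases apart they were 65.5% and 78.9%, with differences of 32.2 and 21.5 points. Counting sites within 1 kb as overlapping gave 70.7% and 84.1%, and 33.1 points for WC. Without dense windows 67.02% of WC sites were kept.

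Among MyoD-only sites in quintile 5, the share kept ran from 31.9% (values of at least 10) to 60.8% (centres, which also move sites between classes), and among NeuroD2-only sites from 94.5% to 98.1% over the 9 alternatives. Read depth is unknown and the lists give no value below their thresholds, so a lost or gained site is one that is not listed, not one shown to be unbound.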
